A study of Homo sapiens with 8 samples.

Results

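Clone 4 of the human leukemia line KCL-22 was compared with Clones 1 and 2, called its sister clones here because all 3 were sorted as single cells from cultures that had become resistant to GNF-2. The comparison uses 3 of the 8 RNA-seq libraries of the study, 1 for each clone. By their labels Clones 1 and 2 resist GNF-2 at 2.5 µM, while Clone 4 resists GNF-2 at 2.5 µM and also imatinib at 2.5 µM and nilotinib at 0.3 µM. None of the 3 clones had met a catalytic inhibitor before its RNA was taken, and each is the expanded progeny of 1 cell.

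KCL-22 was derived from chronic myeloid leukemia in blast crisis, and every library comes from cells that carry the BCR-ABL fusion kinase and the ClonTracer barcodes, a lentiviral library of DNA tags used to follow lineages. The other 5 libraries give levels beside the comparison. They are a vehicle population (0.1% DMSO, 7 days), populations grown out under imatinib (2.5 µM, 27 days), nilotinib (0.3 µM, 27 days) or GNF-2 (2.5 µM, 21 days), and Clone 3, which was sorted from imatinib-resistant cells, resists imatinib and nilotinib and had never met an allosteric inhibitor. The genotype of the kinase in each clone was not analysed here.

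BCR-ABL joins part of BCR to the tyrosine kinase ABL1 and signals without a ligand through adaptors, STAT5, RAS and ERK. Imatinib and nilotinib bind the catalytic site of the kinase, and GNF-2 binds the myristate pocket away from that site. Cells can lose sensitivity to such inhibitors through mutation of the kinase, through drug exporters or through signals that bypass it.

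Values are FPKM, fragments per kilobase of transcript, scaled to the mapped fragments of the library. A rough estimate of depth was 40100000 fragments for Clone 1, 23300000 for Clone 2 and 20700000 for Clone 4, and between 19200000 and 35900000 for the other 5. In Clone 4 an FPKM of 1 over a transcript of 2 kilobases then stands for about 41.4 fragments. In the 3 clones 11212 to 11462 genes had at least 1 FPKM, and the 10 genes with the highest values held 6.91% to 10.4% of all FPKM. The labels name no batch or date. Separate cultures are not stated for the replicates, so p-values measure only the spread between these samples. Clone 4 has 1 library, so its own spread was not measured.

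Clone 4 differed from both sister clones more often upward than downward. A gene was counted when Clone 4 was at least 2-fold above, or at least 2-fold below, both sisters and the higher side (the FPKM of Clone 4 or the mean of the sisters) was at least 5. Of 9383 genes with that level, 342 (3.64%) were higher in Clone 4 and 180 (1.92%) were lower, together 5.56%. Clones 1 and 2, which share their labelled resistance, were themselves at least 2-fold apart at 920 of these genes (9.80%). That share is from 1 contrast between 2 libraries, whereas the 5.56% needs a difference from both sisters. In single contrasts Clone 4 was at least 2-fold from Clone 1 at 910 genes and from Clone 2 at 1307. These counts need at least 5 FPKM in the higher clone of the pair. The SD of the log2 difference of FPKM + 1 over genes was 0.70 between Clones 1 and 2, 0.73 between Clones 4 and 1 and 0.84 between Clones 4 and 2. The distance from Clone 4 to Clone 1 was thus close to the distance between the sisters. The level cut at 5 FPKM fell between LOC219731 (5.001, inside) and GPATCH1 (4.996, outside).

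**Figure D1:**
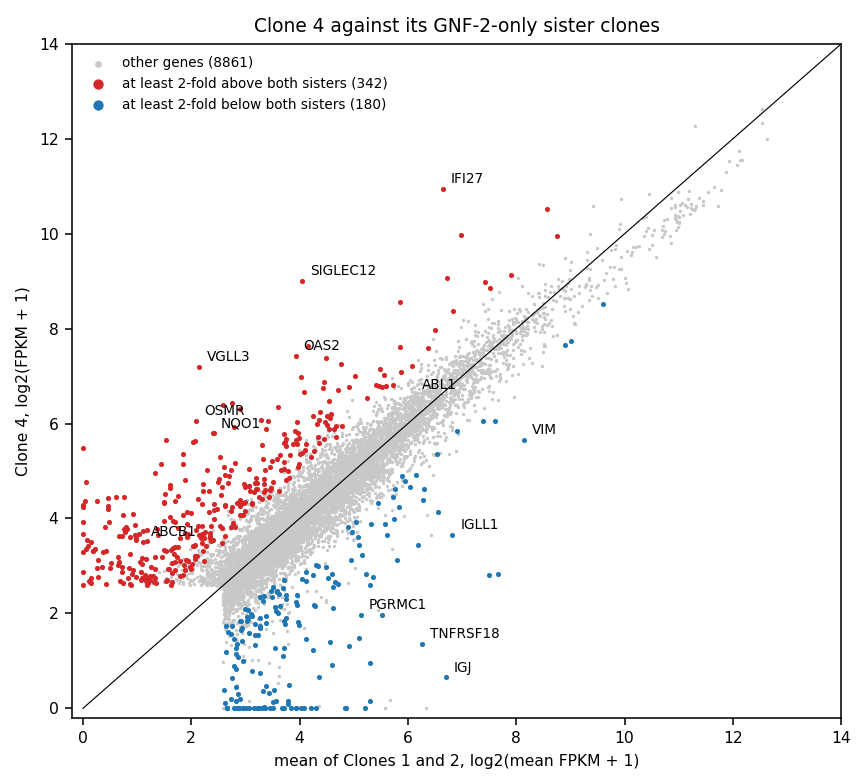
Each point is 1 of 9383 genes, with log2(mean FPKM + 1) of Clones 1 and 2 on the x axis and log2(FPKM + 1) of Clone 4 on the y axis. The 342 genes at least 2-fold above both sisters are red, the 180 at least 2-fold below both are blue, and the line marks equal values.

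With 1 mean per group over all 8 libraries, limma called 0 of 11843 genes (0%) at a Benjamini-Hochberg adjusted p of 0.05, and 1241 genes (10.5%) had an unadjusted p below 0.05, 728 of them higher (6.15%) and 513 lower (4.33%) in Clone 4. The smallest adjusted p was 0.0578. Adjusted p-values below come from that limma fit, two-sided, and differences are on the log2(FPKM + 1) scale, which understates the change of low genes. Other settings of limma called 0 to 68 genes. Against Clone 2 alone the counts were 675 higher and 632 lower, and against Clone 1 alone 586 higher and 324 lower.

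Both partners of the fusion were abundant in all 3 clones. ABL1 lies on chromosome 9 (133589268 to 133763062, GRCh37). Its level was 65.3 in Clone 1, 70.5 in Clone 2 and 96.8 in Clone 4, with 65.9 to 110.5 in the other 5 libraries. The log2 difference was 0.51 (SE 0.22, limma adjusted p = 0.502). BCR, on chromosome 22 (23522552 to 23660224), had 72.1, 72.7 and 106 in the same order (log2 difference 0.54, SE 0.17, limma adjusted p = 0.425). Clone 4 was thus above both sisters for each partner. It was inside the range of the populations for ABL1, but the highest of the 8 libraries for BCR, which had 58.8 to 102 in the other 5. Gene values do not separate the fusion from the normal alleles.

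Of 17 measured genes for the fusion partners and their adaptors, 9 were above both sisters and 3 below both, none by 2-fold, beside 37.3% and 33.3% of all genes. Their median log2 difference was 0.20, against 0.02 over all 9383, with 0.39 against Clone 1 and 0.16 against Clone 2. Members of a list that are not among its 4 largest 2-fold differences, such as those named next, were chosen after their values were seen. SHC1, an adaptor that links tyrosine kinases to RAS, had 36.0 in Clone 1, 69.6 in Clone 2 and 106 in Clone 4. GRB2, which binds BCR-ABL directly, had 81.7, 75.0 and 112, and the phosphatase PTPN11 had 56.9, 58.3 and 82.5. CRKL, a main substrate of the kinase, had 61.0, 75.7 and 57.9. Clone 4 was the highest of the 3 clones for SHC1, GRB2 and PTPN11, and the lowest for CRKL.

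Among 7 measured kinases of the SRC and BTK families and their regulators, only CSK passed the 2-fold rule, beside 5.56% of all genes. CSK, which phosphorylates the inhibitory tail of SRC kinases, had 115 in Clone 1, 122 in Clone 2 and 56.3 in Clone 4 (log2 difference -1.06, SE 0.16, limma adjusted p = 0.195). The other 5 libraries had 76.0 to 85.5, so Clone 4 was the lowest of the 8 and the sisters the highest. LYN, a SRC family kinase of myeloid cells, was high in Clone 2 alone (215, against 62.5 in Clone 1 and 66.7 in Clone 4).

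Among the lists with at least 5 measured members, interferon-stimulated genes had the largest median difference. Type I interferon acts through JAK kinases and a transcription factor complex that holds IRF9, which binds the interferon-stimulated response element (ISRE) in the promoters of antiviral genes. Of 34 listed genes 33 had at least 5 FPKM on the higher side, and Clone 4 was above both sisters for all 33, beside 37.3% of all genes. It was at least 2-fold above both for 22 and 2-fold below for 0, beside 3.64% and 1.92% of all genes. The median log2 difference was 2.02, with 2.97 against Clone 1 and 1.44 against Clone 2. The sisters differed as well: Clone 1 was the lowest of all 8 libraries for 30 of the 33 and Clone 4 the highest for 27, where Clone 4 was the highest for 21.4% of all 9383 genes.

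Because the members of this list stood higher together, promoters are shown for the 4 with the largest difference among those with a match to the core of the ISRE (GAAA, any 2 bases, GAAA). Sequences are the 250 bases before the first listed start in RefSeq, on GRCh38.p14, 5′ to 3′ on the strand of the gene, and capitals mark matches on either strand.
IFI27, promoter at chr14:94110486-94110735 (plus strand): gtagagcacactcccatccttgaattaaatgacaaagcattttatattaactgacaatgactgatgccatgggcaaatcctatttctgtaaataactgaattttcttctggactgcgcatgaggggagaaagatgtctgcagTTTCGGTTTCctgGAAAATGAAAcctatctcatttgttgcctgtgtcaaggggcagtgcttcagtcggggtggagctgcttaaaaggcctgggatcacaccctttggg
IFI44L, promoter at chr1:78620198-78620447 (plus strand): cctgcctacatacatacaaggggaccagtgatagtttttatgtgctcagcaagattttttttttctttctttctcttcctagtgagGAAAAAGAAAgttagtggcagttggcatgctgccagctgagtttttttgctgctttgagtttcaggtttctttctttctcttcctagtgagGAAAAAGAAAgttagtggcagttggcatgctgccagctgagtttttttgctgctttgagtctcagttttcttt
IFI6, promoter at chr1:27672193-27672442 (minus strand): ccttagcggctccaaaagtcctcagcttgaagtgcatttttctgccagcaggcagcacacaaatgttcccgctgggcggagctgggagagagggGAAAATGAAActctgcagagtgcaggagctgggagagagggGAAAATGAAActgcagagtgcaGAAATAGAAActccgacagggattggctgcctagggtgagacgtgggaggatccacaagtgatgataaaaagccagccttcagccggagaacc
IFIT5, promoter at chr10:89414318-89414567 (plus strand): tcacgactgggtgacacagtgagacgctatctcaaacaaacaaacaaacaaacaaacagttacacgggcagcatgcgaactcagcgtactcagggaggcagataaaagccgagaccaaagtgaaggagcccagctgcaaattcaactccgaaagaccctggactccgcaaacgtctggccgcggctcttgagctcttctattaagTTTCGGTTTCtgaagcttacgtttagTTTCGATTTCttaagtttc
The first match of IFI27 began 108 bases before the start, that of IFI44L 164 bases, that of IFI6 156 bases and that of IFIT5 45 bases. Of 25 members found in the promoter table, 15 (60%) held at least 1 match, against 3.07% of 27305 genes with a promoter there. A match is a string of letters and not a measured binding site, and this share describes the list rather than Clone 4. Among the 15 found members that were 2-fold higher in Clone 4, 9 held a match, the same share as in all 25.

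IFI27, an interferon-induced mitochondrial protein on chromosome 14 (94577079 to 94583033, GRCh37), had 2.22 in Clone 1, 197 in Clone 2 and 1957 in Clone 4. The other 5 libraries ran from 12.6 to 366, so Clone 4 was the highest of the 8, although the sisters lay far apart (log2 difference 6.28, SE 3.17, limma adjusted p = 0.551). MX2, an antiviral GTPase, had 0.46, 0.58 and 20.9 in Clones 1, 2 and 4 and 1.76 to 6.04 elsewhere. For MX2 the sisters were close to each other and Clone 4 was 40.2-fold above their mean (log2 difference 3.85, SE 0.45, limma adjusted p = 0.131).

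OAS2, which makes the 2-5A signal that activates RNase L, had 4.72 in Clone 1, 23.7 in Clone 2 and 170.5 in Clone 4, with 24.9 to 74.6 elsewhere. ISG15, a ubiquitin-like modifier, had 46.4, 66.5 and 379, with 76.3 to 189 elsewhere. For both genes Clone 1 was the lowest of the 8 libraries, Clone 2 the next lowest and Clone 4 the highest. Not all members were so far apart: IFITM2, a restriction factor of virus entry, had 264, 476 and 490, and IRF1 had 11.4, 7.25 and 13.9. MX1 stayed under the level cut at 1.74 in Clone 4.

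CMPK2, an interferon-induced mitochondrial nucleotide kinase that was chosen after its values were seen, had 21.8 in Clone 1, 21.0 in Clone 2 and 165 in Clone 4. The other libraries had 18.7 to 30.5, so 7 libraries were close together and Clone 4 stood apart. Its log2 difference was 2.89 (SE 0.16), and limma did not call it in the main fit. RSAD2, its neighbour on chromosome 2, had 10.8, 19.95 and 126. The genes of antigen presentation by MHC class I, many of which interferon induces, showed a smaller difference. Of 18 measured, 10 were above both sisters and 0 by 2-fold, beside 37.3% and 3.64% of all genes, with a median of 0.55. That median was 0.98 against Clone 1 and 0.24 against Clone 2. HLA-B, for example, had 155 in Clone 1, 1281 in Clone 2 and 836 in Clone 4.

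**Figure D2:**
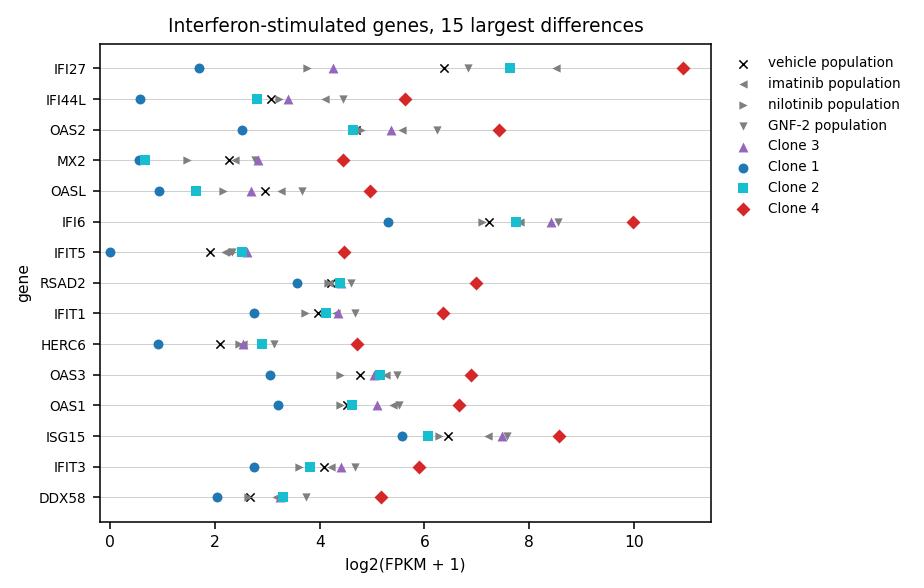
The 15 interferon-stimulated genes with the largest log2 difference, among the 33 with at least 5 FPKM on the higher side, are shown in that order, with log2(FPKM + 1) on the x axis and 1 marker for each of the 8 libraries. Clone 4 (red) is the highest library and Clone 1 (dark blue) the lowest for each of the 15 genes.

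Another list that was higher in Clone 4 holds genes with antioxidant response elements. The factor NRF2 switches them on when its inhibitor KEAP1 is blocked by oxidants or electrophiles, and they make glutathione, reduce thioredoxin and detoxify quinones. Clone 4 was above both sisters for 16 of 19 measured members and below both for 0, and it was 2-fold above both for 6, beside 37.3%, 33.3% and 3.64% of all genes. The median log2 difference was 0.81, with 0.52 against Clone 1 and 0.75 against Clone 2. Clone 4 was the highest of the 8 libraries for 13 of the 19, beside 21.4% of all genes.

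NQO1, a quinone reductase on chromosome 16 (69743304 to 69760533), had 4.18 in Clone 1, 4.33 in Clone 2 and 54.9 in Clone 4. The next highest library was Clone 3 with 12.8, and the populations had 4.18 to 5.998. Clone 4 was 12.9-fold above the sister mean of 4.25 ± 0.11 (SD, n = 2), a log2 difference of 3.41 (SE 0.21, limma adjusted p = 0.0578). HMOX1, which breaks down heme, had 0.53, 0.18 and 8.95, with 2.34 to 6.50 elsewhere. For HMOX1 the sisters held the 2 lowest values of the series.

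The thioredoxin reductase TXNRD1 had 71.9 in Clone 1, 60.2 in Clone 2 and 146 in Clone 4, and 45.6 to 70.3 elsewhere. GCLM, a subunit of the enzyme that starts glutathione synthesis, had 10.5, 5.87 and 28.0, and OSGIN1 had 0.70, 0.52 and 5.44. SRXN1, which repairs peroxiredoxins, had 19.9, 21.98 and 50.2. In each of these 4 genes Clone 4 was above all 7 other libraries, and no limma adjusted p in the list was below 0.0578. The ferritin chain FTH1, with 760, 509 and 618, lay between the sisters, as did TKT and ABHD4. GCLM and TXNRD1 were among 4 of 14 members whose 250-base promoters held TGACNNNGC, the core of the antioxidant response element, on either strand (28.6%, against 11.03% of all genes with a promoter). That share describes the list rather than Clone 4. Among the 5 found members that were 2-fold higher in Clone 4, 2 held a match. The promoters of NQO1, OSGIN1 and SRXN1 held none.

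Of 11 measured drug exporters and uptake carriers, 3 were at least 2-fold above both sisters and 0 below, beside 3.64% and 1.92% of all genes. The median log2 difference was 0.04 (0.16 against Clone 1 and 0.06 against Clone 2). ABCB1 encodes P-glycoprotein, an exporter with a broad range of drugs, on chromosome 7 (87133179 to 87342639). It had 1.20 in Clone 1, 1.11 in Clone 2 and 10.4 in Clone 4, and 0.36 to 1.81 in the other 5 libraries. The other 7 libraries thus lay below 2 FPKM and Clone 4 above, at 8.99-fold the sister mean (log2 difference 2.40, SE 0.36, limma adjusted p = 0.195). Its neighbour ABCB4, a phospholipid exporter, had 3.04, 2.23 and 7.07, but 6.81 to 12.5 elsewhere, so there the sisters were the low libraries. The uptake carrier SLCO4A1 had 11.2, 5.24 and 23.6. ABCC1 had 32.9, 42.7 and 44.7, and the exporter ABCG2, known to handle imatinib, was at or below 0.27 in the 3 clones.

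**Figure D3:**
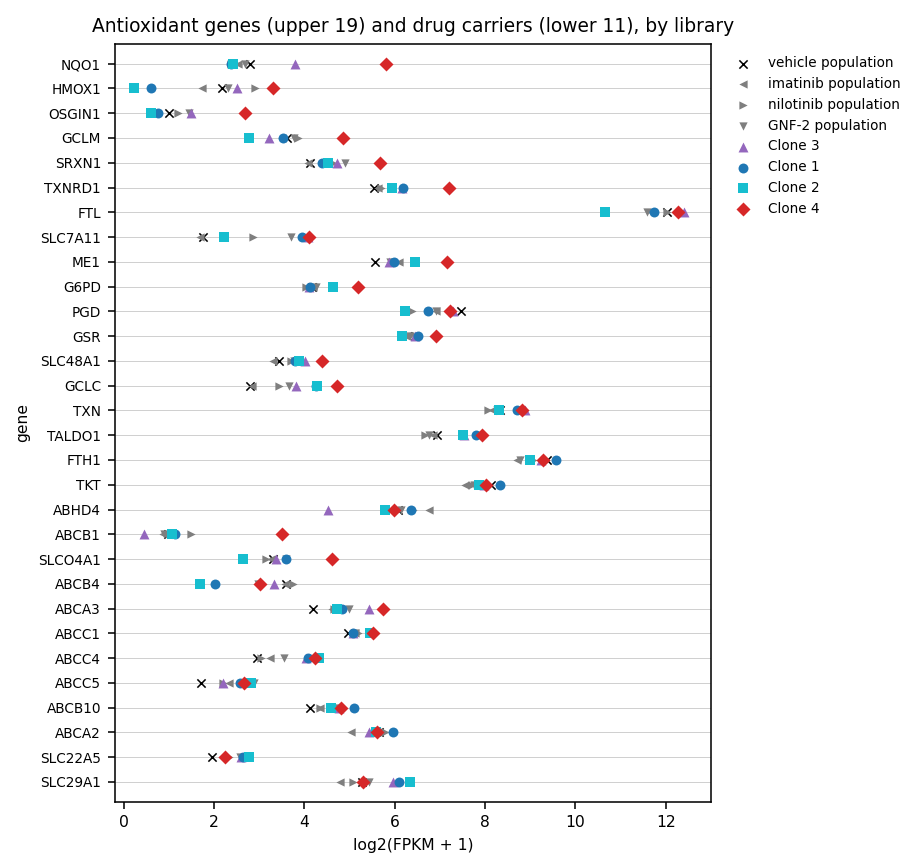
The upper 19 rows are antioxidant genes and the lower 11 rows drug carriers, with log2(FPKM + 1) on the x axis and 1 marker for each library. NQO1 and ABCB1 show Clone 4 (red) to the right at 54.9 and 10.4 FPKM. The other 7 libraries lie close together for ABCB1 and, apart from Clone 3 at 12.8, for NQO1.

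Single cytokine receptors differed in both directions. OSMR, the receptor for oncostatin M, had 6.12 in Clone 1, 0.40 in Clone 2 and 65.4 in Clone 4, with 16.4 to 42.9 elsewhere (log2 difference 4.39, SE 0.99, limma adjusted p = 0.31). IL6ST, its signalling partner gp130, which was chosen after its values were seen, had 3.29, 2.31 and 16.6, with 5.03 to 7.87 elsewhere. For both subunits the sisters were the 2 lowest of the 8 libraries and Clone 4 the highest. The ligand OSM had 15.7, 12.3 and 16.98. IL9R, the receptor for interleukin-9, also chosen after its values were seen, went the other way with 7.41 in Clone 1, 4.08 in Clone 2 and 0.55 in Clone 4, and 4.55 to 10.6 elsewhere.

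Of 16 measured genes of STAT5 and cytokine feedback, 3 were at least 2-fold above both sisters and 0 below, beside 3.64% and 1.92% of all genes. The median log2 difference was 0.28, with 0.17 against Clone 1 and 0.44 against Clone 2. SOCS1, a feedback inhibitor of JAK kinases, had 13.6 in Clone 1, 10.9 in Clone 2 and 47.6 in Clone 4, and SOCS3 had 7.08, 6.92 and 19.3. ID2, an inhibitor of helix-loop-helix factors, had 1.48, 1.07 and 12.5. The SOCS1 level of Clone 4 was inside the range of the other 5 libraries (35.8 to 124). So were those of SOCS3 (5.74 to 28.4) and ID2 (5.68 to 23.8). The direct STAT5 targets CISH and PIM1 differed less: CISH had 54.4, 40.6 and 62.2, and PIM1 had 59.0, 50.3 and 71.0. MYC lay between the sisters at 254, against 283 in Clone 1 and 182 in Clone 2.

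Among 12 measured ERK feedback and immediate early genes 8 were above both sisters and 1 below, beside 37.3% and 33.3% of all genes, with a median of 0.48 (0.16 against Clone 1 and 0.70 against Clone 2). SPRY1, which restrains receptor signalling to RAS, had 22.8 in Clone 1, 21.8 in Clone 2 and 88.3 in Clone 4. FOSL1, a partner of JUN in the factor AP-1, had 17.04, 21.9 and 47.2. The phosphatase DUSP10, which acts on p38 and JNK, went the other way with 20.5, 26.3 and 4.92 (log2 difference -2.03, SE 0.26, limma adjusted p = 0.151). Clone 4 was the highest of the 8 libraries for SPRY1 and the lowest for DUSP10. SPRY1 had 44.0 to 81.2 elsewhere, with vehicle next to Clone 4, and FOSL1 had 27.3 to 102 elsewhere. For SPRY1 and FOSL1 the sisters were the lowest libraries.

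The receptor tyrosine kinases held members in both directions. EPHA2, an ephrin receptor, had 1.28 in Clone 1, 0.08 in Clone 2 and 20.8 in Clone 4, and 1.08 to 8.75 elsewhere. PDGFRB, a kinase that imatinib also inhibits, had 0.30, 2.27 and 5.04. FGFR3 was high in Clone 2 alone (23.2, against 2.74 in Clone 1 and 0.41 in Clone 4).

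Of the 342 higher genes 319 were protein coding. In 102 of them Clone 4 was at least 2-fold above all 7 other libraries, and in 53 both sisters were instead at least 2-fold below all 5 other libraries. In 100 the level of Clone 4 was not above the highest of those 5. IGFBP4, which binds insulin-like growth factors, belongs to both of the first groups: it had 1.83 in Clone 1, 1.93 in Clone 2, 49.0 in Clone 4 and 5.41 to 11.4 elsewhere (log2 difference 4.12, SE 0.32, limma adjusted p = 0.0605). ATP9A, a phospholipid flippase of endosomes, had 0.03, 0.37 and 19.5, with 0.10 to 8.87 elsewhere. ETV1, an ETS transcription factor, had 0.71, 0.03 and 18.3, with 3.73 to 8.77 elsewhere.

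VGLL3, a cofactor of TEAD transcription factors, shows the pattern of low sisters. It had 5.86 in Clone 1, 0.98 in Clone 2 and 146 in Clone 4, but 37.8 to 322 in the other 5 libraries, with Clone 3 the highest. NRP2, a receptor for semaphorins and VEGF, had 0.05, 0.01 and 19.7, with 20.04 to 60.5 elsewhere, so Clone 4 was below every library except its sisters. NR2F2, an orphan nuclear receptor, had 0.02, 0.07 and 26.1, with 1.29 to 14.5 elsewhere.

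SIGLEC12 and SIGLEC6, sialic acid-binding receptors that lie side by side on chromosome 19, were both higher in Clone 4. SIGLEC12 (51994613 to 52005043) had 25.6 in Clone 1, 5.50 in Clone 2 and 510.2 in Clone 4, with 11.6 to 227 elsewhere (log2 difference 5.28, SE 0.86, limma adjusted p = 0.217). SIGLEC6 had 2.93, 7.15 and 82.9, against 6.23 to 118 elsewhere. Clone 4 was the highest library for SIGLEC12 and second to vehicle for SIGLEC6. Neighbouring ZNF175 was in the same run of higher genes.

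**Figure D4:**
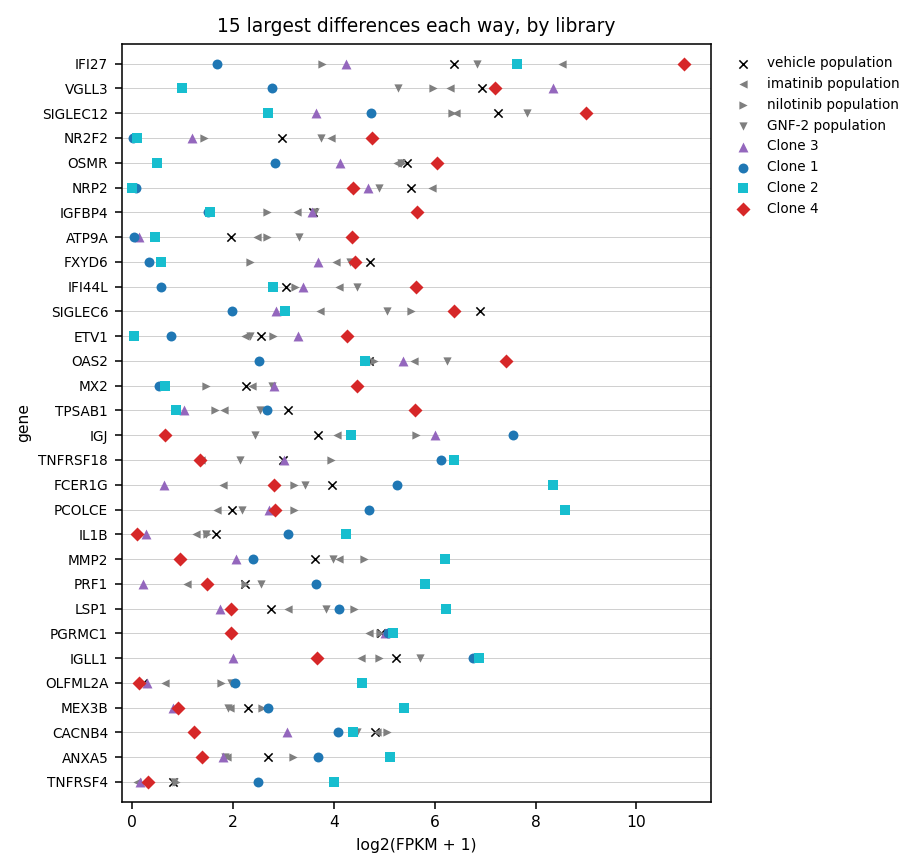
The 15 protein-coding genes with the largest log2 difference in each direction, among those above 0 in all 3 clones, are shown with log2(FPKM + 1) on the x axis and 1 marker for each library. Clone 4 (red) lies right of both sisters (blue and cyan) in the upper 15 rows, up to 1957 FPKM for IFI27, and left of both in the lower 15.

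Of the 180 lower genes 156 were protein coding. Clone 4 was at least 2-fold below all 7 other libraries in 61, and in 25 both sisters were at least 2-fold above the other 5. PGRMC1, a heme-binding membrane protein on chromosome X (118370211 to 118378429), had 32.9 in Clone 1, 35.4 in Clone 2 and 2.92 in Clone 4. The other 5 libraries had 25.01 to 33.6, so 7 libraries held a steady level and Clone 4 was 11.7-fold below the sister mean (log2 difference -3.16, SE 0.19, limma adjusted p = 0.0578). CACNB4, a subunit of calcium channels, had 15.9, 19.9 and 1.34, with 7.38 to 32.4 elsewhere.

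The filament protein vimentin (VIM) had 293 in Clone 1, 270 in Clone 2 and 49.5 in Clone 4, and 233 to 966 elsewhere, so Clone 4 was the lowest of the 8 (log2 difference -2.48, SE 0.23, limma adjusted p = 0.0984). KRT18 and KRT8, keratin partners that lie side by side on chromosome 12, were lower too. KRT18 had 74.7, 81.2 and 23.7, and KRT8 had 22.8, 43.5 and 9.88. For both keratins the populations were close to Clone 4, at 29.9 to 32.6 for KRT18 and 9.38 to 11.2 for KRT8.

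TNFRSF18 (GITR) and TNFRSF4 (OX40), costimulatory receptors of T cells, are neighbours on chromosome 1 and were highest in the sisters. TNFRSF18 had 68.7 in Clone 1, 82.0 in Clone 2 and 1.56 in Clone 4, with 1.57 to 14.4 elsewhere (log2 difference -4.89, SE 1.10, limma adjusted p = 0.31). TNFRSF4 had 4.65, 15.1 and 0.25, with 0.07 to 0.84 elsewhere. IGLL1, part of the surrogate light chain of B cell precursors, had 108 in Clone 1, 117 in Clone 2 and 11.6 in Clone 4, with 3.02 to 51.5 elsewhere. For IGLL1 the sisters were the 2 highest libraries and close to each other (log2 difference -3.16, SE 0.22, limma adjusted p = 0.0605).

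For other lower genes the sisters were far apart. IGJ, the joining chain of immunoglobulins, had 187 in Clone 1, 19.2 in Clone 2 and 0.57 in Clone 4, and 4.45 to 63.0 elsewhere, so Clone 4 was the lowest of the 8. FCER1G, a signalling chain of Fc receptors, had 37.1, 323 and 6.05, and PCOLCE, an enhancer of collagen processing, had 24.9, 381 and 6.09. The survival gene BCL2 had 64.6 in Clone 1, 12.3 in Clone 2 and 5.10 in Clone 4, and 10.8 to 26.4 elsewhere, which put Clone 4 lowest (log2 difference -2.28, SE 0.97, limma adjusted p = 0.5). Its relatives differed less: MCL1 had 84.0, 79.3 and 108, and BCL2L1 had 26.3, 29.8 and 38.5. Of 15 measured BCL2 family genes BCL2 alone passed the 2-fold rule, beside 5.56% of all genes.

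Most genes of DNA replication and mitosis stood lower in Clone 4, with medians under 2-fold. Of 24 measured DNA replication genes 22 were below both sisters and 0 above, beside 33.3% and 37.3% of all genes, with a median log2 difference of -0.63 (-0.58 against Clone 1 and -0.59 against Clone 2). The median difference between the sisters was 0.06, and Clone 4 was the lowest of all 8 libraries for 17 of the 24, where it was lowest for 17.9% of all genes. The licensing factor MCM5 had 54.6 in Clone 1, 45.0 in Clone 2 and 29.6 in Clone 4, and thymidylate synthase TYMS had 152, 164 and 100.5. No limma adjusted p in this list was below 0.325, and RFC4 was listed at 0 in Clones 1 and 4.

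Of 23 measured mitosis genes 18 were below both sisters and 1 was above, beside the same shares of all genes. The median was -0.43, with -0.26 against Clone 1, -0.58 against Clone 2 and -0.32 between the sisters (Clone 1 minus Clone 2). Clone 4 was the lowest of the 8 libraries for 18 of the 23, beside 17.9% of all genes. The kinase AURKB had 17.1, 13.9 and 8.59, and CDK1 had 38.3, 45.0 and 27.1, while cyclin CCNB1 (32.3, 47.0 and 41.2) lay between. All 3 clones were below vehicle for CDK1 (139 there) and AURKB (36.8 there). The cell cycle inhibitor CDKN1A (p21) had 14.2 in Clone 1, 6.30 in Clone 2 and 36.0 in Clone 4, within the 16.2 to 55.6 of the other libraries. CDKN2A had 2.87, 1.60 and 7.46.

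Cytosolic ribosomal protein genes were below both sisters for 23 of 25 members, beside 33.3% of all genes, with a median of -0.58. This difference was -0.99 against Clone 1 and -0.28 against Clone 2, and Clone 1 was the highest of the 8 libraries for all 25. Clone 4 was the lowest of the 8 for 18 of the 25, where it was lowest for 17.9% of all genes. RPL3 had 2298 in Clone 1, 1347 in Clone 2 and 995 in Clone 4, against 1328 to 1748 elsewhere. Ribosome biogenesis and MYC target genes were 9 above and 6 below both sisters out of 25, beside 37.3% and 33.3% of all genes. Their median of 0.09 turned with the sister used (-0.11 against Clone 1 and 0.22 against Clone 2). Of 7 measured histone genes 3 were 2-fold higher, beside 3.64% of all genes, among them HIST1H2BK (30.4, 27.6 and 108). As a class, replication-dependent histone mRNAs mostly lack a poly(A) tail, and whether those of the 3 higher genes do was not examined. The part of RNA selection in these values was not tested. Glycolysis and hypoxia genes (28 measured, median -0.09) and cholesterol and fatty acid synthesis genes (29 measured, median -0.07) had 0 members 2-fold from both sisters, beside 5.56% of all genes. Both medians turned to above 0 against Clone 1 (0.09 and 0.03).

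**Figure D5:**
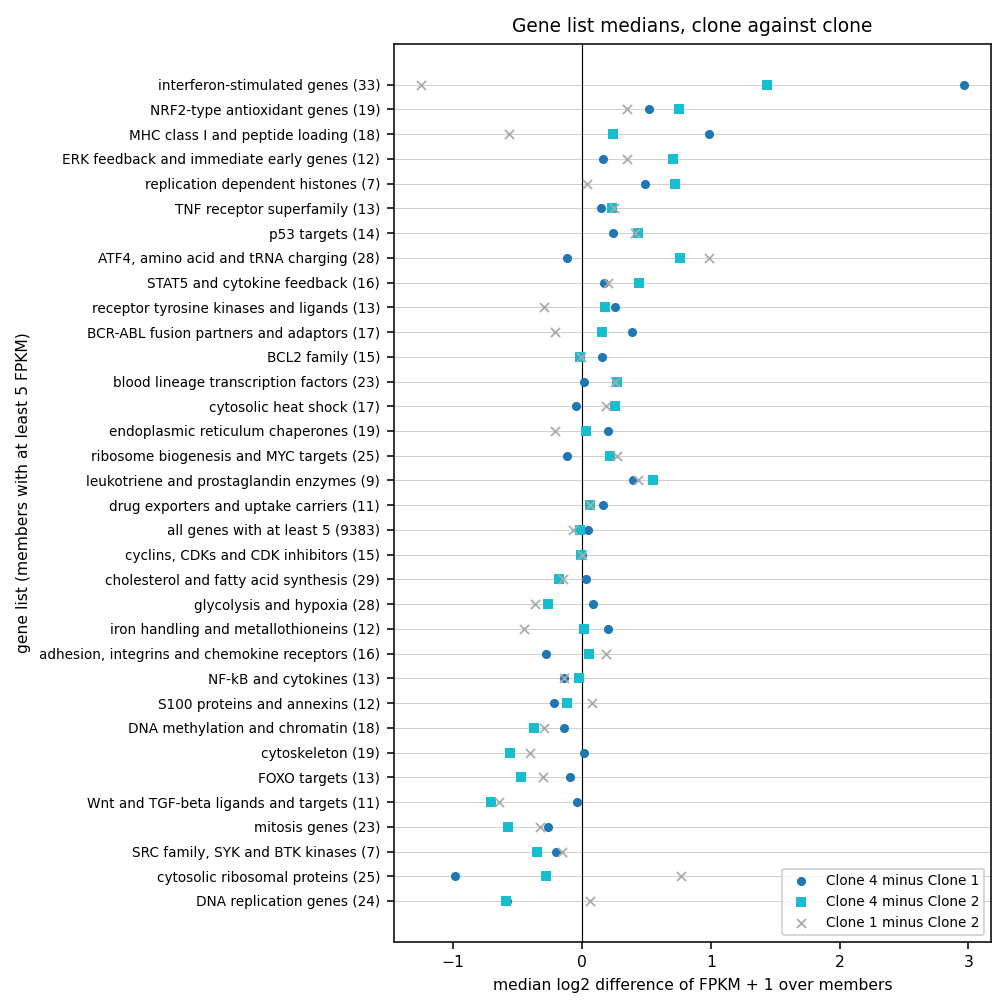
For each gene list with at least 5 measured members (number in brackets) the x axis gives the median log2 difference of FPKM + 1 between Clone 4 and Clone 1 (circles), Clone 4 and Clone 2 (squares) and Clones 1 and 2 (crosses). Interferon-stimulated genes lie furthest right at 2.97 and 1.44. DNA replication genes show both Clone 4 differences near -0.58 with the sisters' median difference at 0.06. Ribosomal proteins lie at -0.99 against Clone 1 and -0.28 against Clone 2, with the sisters' median difference at 0.77.

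Markers of several blood lineages were present in all 3 clones, and the defining genes of others were at or near 0. GATA2, a factor of myeloid progenitors, had 247 in Clone 1, 155 in Clone 2 and 287 in Clone 4, whereas hemoglobin genes, MPO, KIT and LYZ were at or below 0.52 in each clone. CD34, a marker of stem and progenitor cells, had 0.57, 0.85 and 12.2, and at most 3.08 elsewhere, so Clone 4 was the highest (log2 difference 2.95, SE 0.46, limma adjusted p = 0.198). The tryptases TPSAB1 and TPSB2 were also highest in Clone 4: TPSAB1 had 5.36, 0.84 and 48.1, and TPSB2 had 1.07, 0.21 and 11.5. These are near-identical genes, so the split between them is uncertain, and the other mast cell genes CPA3, CMA1 and MS4A2 were at or below 0.41. CTSG, a granule protease, had 14.7, 0.05 and 32.1. The 19 neutrophil granule genes with a value, of any level, summed to 613 in Clone 1, 288 in Clone 2 and 705 in Clone 4. Only 3 of them had at least 5 FPKM on the higher side, and these held 703 of the 705. The sum was 901 in vehicle and 1158 in Clone 3, and 525 to 682 in the imatinib, nilotinib and GNF-2 populations. The 18 megakaryocyte and platelet genes summed to 752, 1037 and 1285. Of the 10 measured, 2 were above both sisters and 5 below, beside 37.3% and 33.3% of all genes, with a median log2 difference of -0.33. The sum in Clone 4 was mostly MMRN1. MMRN1, a protein of platelet granules, had 380 in Clone 1, 480 in Clone 2 and 982 in Clone 4, the highest of the 8 libraries, whereas ITGA2B, a platelet integrin, had 7.97, 5.05 and 2.16. T cell and natural killer markers were mixed, with CD7 at 28.6, 54.0 and 112 and the perforin gene PRF1 at 11.5, 54.7 and 1.80. The summed level of the 21 T and natural killer markers was 324 in Clone 1, 305 in Clone 2 and 368 in Clone 4.

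For some genes the difference came from an entry of exactly 0, and nothing in the labels tells how such entries arose. Clone 4 was listed at 0 for 30 of the 180 lower genes, and 17 of these were above 0 in all 7 other libraries. EEFSEC, the elongation factor for selenocysteine, was listed at 0 in Clone 4 and at 16.03 to 18.4 in the other 7. DDIT3 (CHOP), a stress-induced factor, was listed at 0 against 42.5 in Clone 1 and 13.48 in Clone 2, and VAMP8 at 0 against 34.1 and 21.2. SPI1 (PU.1), a myeloid transcription factor, was listed at 0 in Clone 4 and in Clone 3, and at 14.7 in Clone 1 and 15.8 in Clone 2. In the other direction both sisters were listed at 0 for 8 of the 342 higher genes. MOB4 was one of them, with 18.02 in Clone 4, 0 in Clone 3 and the GNF-2 population and 21.7 to 22.8 in the other 3 libraries. No fold is given for genes listed at 0.

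Some of the called genes lay next to each other. Of the 522 genes 73 (13.98%) fell in 33 runs of neighbours called in the same direction, 27 higher and 6 lower, with at most 500000 bases between starts. The longest held 4 genes, among them IFIT2, IFIT3, IFIT1 and IFIT5 on chromosome 10. OAS1, OAS3 and OAS2 on chromosome 12 formed another. The medians of whole chromosomes ran from -0.12 (chromosome 6) to 0.10 (chromosome 16).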

How the data were processed

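RNA of 8 KCL-22 libraries was extracted with a column kit and sequenced on an Illumina instrument, per the labels' protocols. The deposited table gives FPKM values per gene, made by the authors, and names GRCh37 positions; TopHat 1.3 and Cufflinks 1.3 are named in the submitters' processing notes, with no step or setting given in the sources used here. Of 31402 entries 70 had no value in some library and were left out, and 19 mitochondrial entries were all listed at 0. The step between the smallest values of 509 intronless genes gave the rough depth estimates.

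Values were analysed as log2(FPKM + 1). The test was limma (3.58.1, R 4.3.3) with the groups as factor levels, all 8 libraries and a variance trend. It ran on the 11843 genes whose FPKM averaged 1 or more, and p-values were adjusted over them (Benjamini-Hochberg). The lone Clone 4 library was assumed to vary like the other groups, of which only 2 have 2 libraries. These are Clones 1 and 2, and the imatinib and nilotinib populations, whose drugs differ. The fit was tested on simulated data. Counts by fold need 2-fold from both sisters and 5 FPKM on the higher side. Named genes are the 15 largest differences each way above 0 in the 3 clones, up to 5 each way listed at 0, up to 4 members 2-fold from both sisters in each list, and ABL1 and BCR; others were chosen after their values were seen. The comparison and the gene lists were chosen with earlier results of these data known. Promoters are from RefSeq, GRCh38.p14, and their positions were not mixed with those of the table. Python 3.11.15, pandas 2.3.3, numpy 2.4.6, scipy 1.17.1 and matplotlib 3.10.9 were used. Alternatives changed the pseudocount, the filters, the fold, the scaling, the groups and the libraries. Some genes are not reported here.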

Additional observations from a re-analysis of the deposited data

How the results depend on the processing

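The counts of genes 2-fold from both sisters (342 higher, 180 lower) became 193 and 68 with a pseudocount of 5, 561 and 378 from 1 FPKM, 155 and 58 from 20 FPKM, 716 and 518 at 1.5-fold, and 134 and 74 at 4-fold. Leaving out 1 sister gave 586 to 675 higher and 324 to 632 lower; 65.5% of the counted genes were higher with both sisters and 51.6% without Clone 1. limma called 0 genes as reported and 0 with quantile normalization, with genes above 0 in all 8 libraries, with each replicate left out, with only the 3 libraries and with only the 4 clones. It called 12 with a pseudocount of 0.1, 6 with a pseudocount of 5, 68 with no filter, 16 from a mean FPKM of 5, 22 with median-ratio scaling, 15 with groups by resistance alone, 21 with no variance trend, 26 with robust variance and 22 with the length and GC trend removed, the last chosen after seeing the data. The cause of these differences was not tested. The median of the receptor tyrosine kinase list (0.24) was -0.027 from a mean FPKM of 5 and -0.032 with genes above 0 in all 8 libraries, and that of the BCL2 family (0.16) was -0.013 without Clone 1. The median of the antioxidant list (0.81) was 0.52 to 0.75 without 1 sister. The median of the DNA replication list (-0.63) was -0.64 with a pseudocount of 0.1, -0.48 with a pseudocount of 5, -0.65 with quantile normalization, -0.59 to -0.58 without 1 sister and -0.59 with the length and GC trend removed. For the 99 named genes 0 of 961 alternative values reversed direction. That was largely fixed beforehand and is no measure of robustness. All but ABL1 and BCR were chosen for lying at least 2-fold from both sisters, and ABL1 and BCR also lay above both. No paired analysis was possible because Clone 4 is 1 library and shares fewer than 2 replicate numbers with its sisters. Depth limits values below about 1 FPKM, where a transcript of 2 kilobases has about 41.4 fragments in Clone 4.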
